A study of Mus musculus with 4 samples.

Results

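The peaks described here are the open-chromatin sites assigned to basement membrane, matrix protease and integrin genes in retinal endothelial cells of mice that lose Rnf20. They were chosen by gene name alone from the authors' deposited table of peaks, by a pattern covering collagens, laminins, nidogens, perlecan, other matrix proteins, ADAMTS and MMP proteases, TIMP inhibitors and integrins. The pattern took 96 of the 6891 listed peaks, assigned to 63 of the 4992 gene symbols of the authors' deposited table. The assay was ATAC-seq, which maps open DNA with a transposase that inserts sequencing adapters into it. CD31-selected endothelial cells came from retinas of pups at postnatal day 7, when vessels are still sprouting across the retina. All pups had C57BL/6 strain labels and Rnf20 p/p alleles (strain name Rnf20tm1a(EUCOMM)Wtsi, called floxed in the treatment notes), and received 75 µg of 4-hydroxytamoxifen daily from postnatal day 1 to 4. Knockout pups carried the tamoxifen-inducible Pdgfb-iCreERT2 transgene, which is active in endothelial cells through the Pdgfb promoter, and control pups were Cre-negative. RNF20 is an E3 ligase for histone H2B.

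Of the 4 libraries, 1 knockout and 1 control have matching labels. The other 2 carry a title that names one genotype and a genotype field that names the other, so which libraries entered each group mean is unknown. The authors' deposited table holds 1 mean per group and peak, as log2 signal, with the authors' own p-value and false discovery rate (FDR). No replicate spread can be given, no result could be recomputed without the doubtful libraries, and the depth is unknown. Every listed peak has an unadjusted p-value of at most 0.0499 per the authors' deposited table, so a gene without a listed peak was not shown to be unaltered. For the same reason the levels of endothelial marker genes, of which 7 of 16 have a listed peak, could not be used to check the cells. A peak is called here at FDR < 0.05, and "higher" or "lower" for the rest refers only to the sign of the listed log2 fold, knockout minus control. A higher share of cells with an open site and more open DNA per cell cannot be told apart in such bulk libraries.

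Endothelial cells rest on a basement membrane, a sheet in which laminin and type IV collagen networks are tied together by nidogens and the proteoglycan perlecan. Sprouting cells hold on to this sheet and to fibronectin through integrins, paired alpha and beta chains that link matrix to the cytoskeleton. ADAMTS and MMP enzymes cut matrix proteins, and TIMPs inhibit them. In the retina, astrocytes, pericytes, Müller glia and endothelium all contribute matrix along the vessels.

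The 4 member peaks at promoters were all higher. For 3 of them the promoter sequence, which the listed peak overlaps, is shown here. The promoter peak of the laminin gene Lamc3 also spans its RefSeq start site, but its sequence is not shown. The sequences are the 250 bases before the RefSeq start site, on the plus strand of GRCm38.p6, the build also called mm10. Capitals mark matches, on either strand, to any of the motifs searched. The AP-1 motif was spelled TGANTCA. For the TATA box the letters searched were TATAAA. The GC box was taken as GGGCGG. The CCAAT box was matched by its own letters alone. The ETS core, searched as CCGGAA, is in none of the 3 windows. No match shown overlaps another.
Mmp1a, chr9:7463891-7464140: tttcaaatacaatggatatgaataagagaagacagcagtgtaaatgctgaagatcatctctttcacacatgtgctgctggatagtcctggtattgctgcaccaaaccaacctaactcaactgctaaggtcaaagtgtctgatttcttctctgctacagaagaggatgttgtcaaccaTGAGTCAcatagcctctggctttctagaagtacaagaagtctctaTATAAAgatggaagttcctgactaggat
Itgb5, chr16:33829415-33829664: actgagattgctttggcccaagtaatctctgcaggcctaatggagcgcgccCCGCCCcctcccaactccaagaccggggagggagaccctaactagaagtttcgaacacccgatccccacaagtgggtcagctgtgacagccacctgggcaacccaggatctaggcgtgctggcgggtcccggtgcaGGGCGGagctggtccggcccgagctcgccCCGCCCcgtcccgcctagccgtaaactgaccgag
Col11a1, chr3:114030290-114030539: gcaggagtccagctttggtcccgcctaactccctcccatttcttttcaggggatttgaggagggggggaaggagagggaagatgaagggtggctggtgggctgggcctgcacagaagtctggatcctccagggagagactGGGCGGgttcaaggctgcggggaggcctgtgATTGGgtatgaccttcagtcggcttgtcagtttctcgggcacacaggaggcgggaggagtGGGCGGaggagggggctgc

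At Mmp1a, an interstitial collagenase gene, the listed peak covered 201 of these 250 bases, with the AP-1 match inside it. Mmp1a stood at 4.17 in knockout and 2.63 in control per the authors' deposited table (log2 fold 1.55, FDR 0.423). The AP-1 letters are in 6.75% and the TATA letters in 12.4% of the 32851 RefSeq promoter windows of the same length. At Itgb5, which encodes an integrin beta chain that pairs with alpha V, the peak covered 77 of the bases. Its log2 signal per the authors' deposited table was 3.57 in knockout and 1.84 in control (log2 fold 1.73, FDR 0.267). Col11a1 encodes a fibril-forming collagen chain, and its peak covered 191 bases of the window, at 3.91 in knockout and 2.57 in control (1.34, FDR 0.521 per the authors' deposited table). The GC box letters are in 32.7% and the CCAAT letters in 33.8% of all windows, and the ETS core letters in 12%. GC content was 40.4% for Mmp1a, 65.2% for Itgb5 and 62.4% for Col11a1, against a median of 52.4% over all windows. The remaining promoter peak belongs to the laminin gene Lamc3 and is given below with the laminins. None of these promoter peaks was called, against 2.17% of the 415 listed promoter peaks.

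Across the 96 peaks, signal was higher in knockout at 75 and lower at 21, or 78.1% higher (95% exact binomial interval 68.5% to 85.9%, for counting error only). Over all listed peaks the share was 62.1%. The median log2 fold per the authors' deposited table was 1.19 over the 96 peaks and 0.93 over all listed peaks. Intergenic peaks are higher more often than others throughout the list, so the makeup of the set was compared too. All listed peaks, weighted to the annotation classes of the 96, would be 62.3% higher, and weighted to annotation class and distance 63.5%. Peaks near one gene share a locus and are not independent. With 1 peak per gene, that of smallest p-value, 45 of 63 were higher, or 71.4%, and that interval of 58.7% to 82.1% includes the 62.1% of all listed peaks. No test of the list was made. The 5 called peaks made up 5.21% of the 96, against 3.02% of all listed peaks.

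**Figure D1:**
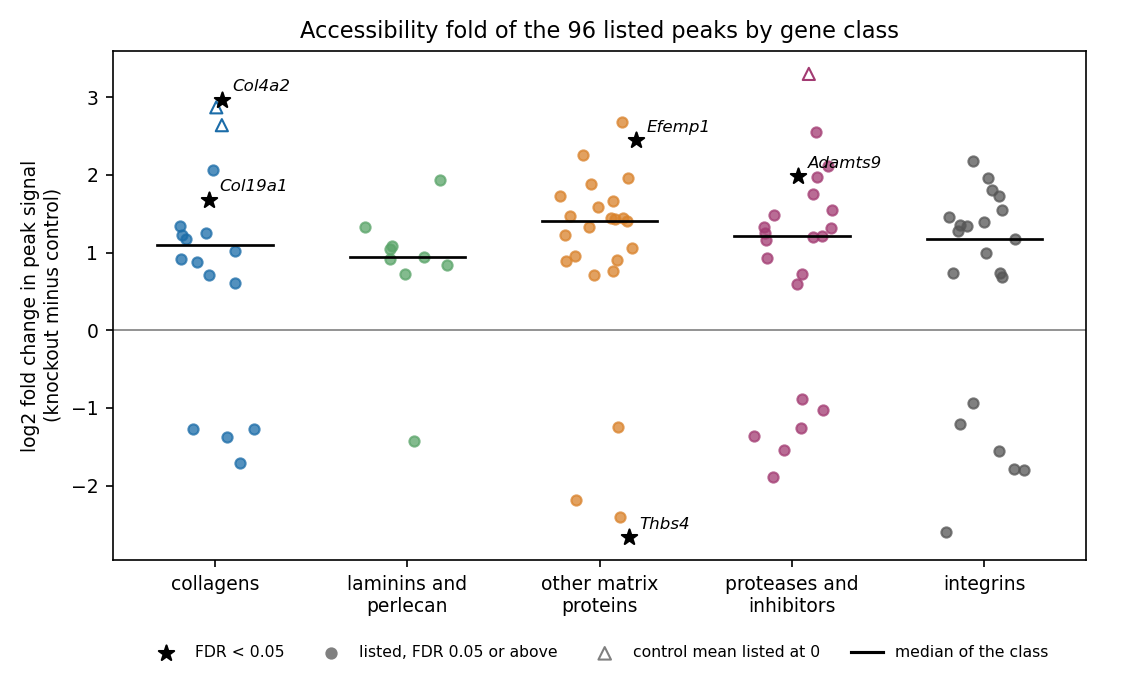
Log2 fold change (knockout minus control, vertical axis) of each of the 96 peaks, by gene class. Stars mark the 5 peaks at FDR < 0.05, open triangles the 3 peaks whose control mean is listed at 0, and lines the class medians, which lie between 0.94 and 1.41.

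Of the 96 peaks, 4 were called and higher in knockout, against 89 of all 6891 listed peaks (1.29%). Among called peaks alone, 4 of 5 were higher, against 89 of 208 over the whole list. The largest fold of the 4 was at chr8:11300493-11300636, in the first intron of Col4a1 but assigned to Col4a2. Its log2 signal per the authors' deposited table was 3.85 in knockout and 0.88 in control (log2 fold 2.97, FDR 0.0368). That control mean is close to 0, the lowest value of its column, so the size of the fold is uncertain. Efemp1, which encodes the elastic fibre protein fibulin-3, rose at an intron peak, chr11:28906317-28906607. In the authors' deposited table it stood at 4.49 in knockout and 2.03 in control (2.45, FDR 0.0214). The called Adamts9 peak, at chr6:93266848-93267274, lies far upstream of this versican-cleaving protease gene, with 5.07 in knockout and 3.09 in control (1.98, FDR 0.0214 per the authors' deposited table). Col19a1 encodes a fibril-associated collagen, and its intron 4 holds a called peak at chr1:24553424-24553864. Signal there was 5.80 in knockout and 4.11 in control (1.68, FDR 0.0273 per the authors' deposited table), the strongest knockout signal of the 5.

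In knockout 1 of the 96 peaks was called and lower, against 119 of all 6891 listed peaks (1.73%). That peak lies in intron 20 of Thbs4, a thrombospondin gene, at chr13:92753947-92754310. In the authors' deposited table it stood at 1.56 in knockout and 4.22 in control (-2.66, FDR 0.0169). This was the smallest FDR of the 96. Just outside the threshold were an intron peak of Itgb1 (0.89 in knockout, 3.50 in control, -2.60, FDR 0.0501) and an intergenic peak of Loxl4 (1.72 in knockout, 3.90 in control, -2.18, FDR 0.0531), from the authors' deposited table. Ccn6 followed at 4.86 in knockout and 3.20 in control (1.66, FDR 0.0839 per the authors' deposited table). At the Adamts1 peak with FDR 0.0891 the knockout mean was 3.30 and the control mean was listed at 0 per the authors' deposited table, so no fold is given.

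**Figure D2:**
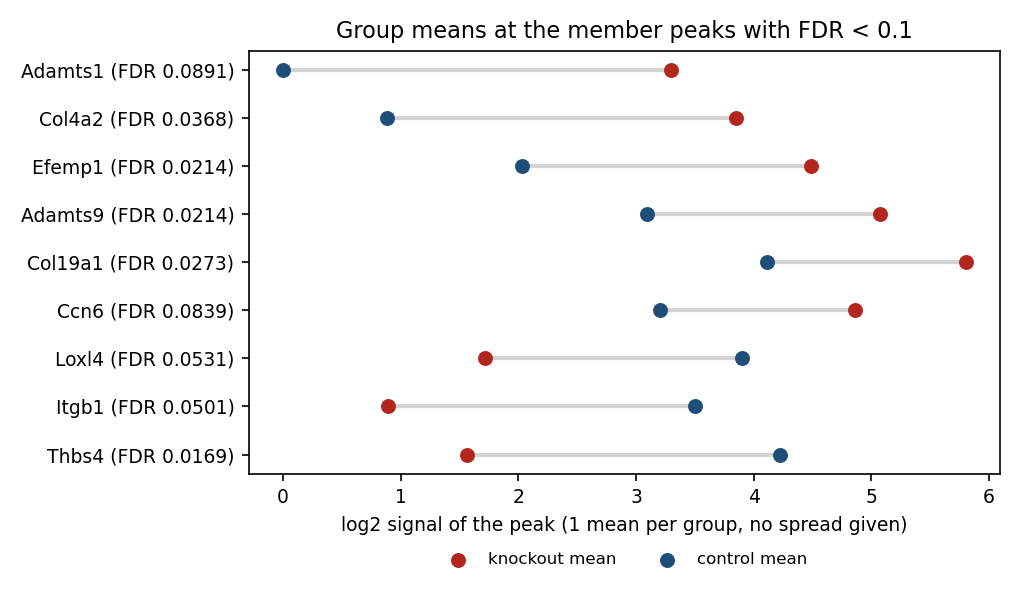
Log2 signal (horizontal axis) of the knockout and control group means at the 9 member peaks with FDR < 0.1, 1 row per peak. Knockout lies right of control in 6 rows and left of it in the rows of Loxl4, Itgb1 and Thbs4; the table gives no spread for any mean.

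Collagens held 18 listed peaks at 14 genes, of which 14 were higher and 4 lower (77.8% higher, median log2 fold 1.10 per the authors' deposited table). The basement membrane collagens were all higher. Col4a1 and Col4a2, the chains of the main type IV network, are arranged head to head, and their listed peaks lie inside each other's gene. The peak assigned to Col4a1 is in intron 4 of Col4a2, at 5.64 in knockout and 4.93 in control (0.71, FDR 0.512 per the authors' deposited table). The uncalled peak assigned to Col4a2, in intron 2 of Col4a1, stood at 5.97 in knockout and 4.95 in control (1.02, FDR 0.178 per the authors' deposited table). A further listed peak in this pair, in intron 16 of Col4a2 and assigned to E230013L22Rik, had the opposite sign, with 3.49 in knockout and 4.61 in control (-1.13, FDR 0.26 per the authors' deposited table). So 3 of the 4 listed peaks within the pair were higher, 1 of them called. Col18a1, whose product releases endostatin, had a peak 2687 bases from its start site at 4.26 in knockout and 3.35 in control (0.92, FDR 0.509 per the authors' deposited table).

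Fibril-forming collagens gave 2 higher peaks and 1 lower. Besides the Col11a1 promoter, Col3a1, the vessel wall and skin collagen gene, had an intergenic peak with 2.88 in knockout and a control mean listed at 0 (FDR 0.237 per the authors' deposited table). The lower peak was an intron peak of Col11a2 with 2.66 in knockout and 3.93 in control (-1.27, FDR 0.285 per the authors' deposited table). Fibril-associated collagens were split 2 and 2. Col9a2 had an intron peak at 2.56 in knockout and 3.93 in control (-1.37, FDR 0.233 per the authors' deposited table). Col14a1 had an intron peak 425 bases from its start at 2.39 in knockout and 4.10 in control (-1.71, FDR 0.233). Its other peak, deeper in the gene, had 2.64 in knockout and a control mean listed at 0 (FDR 0.349), both from the authors' deposited table. Among the other collagens, 6 of 7 peaks were higher. Col28a1 alone held 3 of them, with log2 folds of 0.61, 1.23 and 1.25 and FDR between 0.447 and 0.525 per the authors' deposited table. Col23a1, a transmembrane collagen gene, stood at 4.12 in knockout and 2.06 in control (2.06, FDR 0.248 per the authors' deposited table). The exception was Col6a4, at 3.37 in knockout and 4.64 in control (-1.27, FDR 0.226 per the authors' deposited table). Single peaks of Col8a2 (0.88) and Col26a1 (1.18) were higher with FDR of 0.499 and 0.487 per the authors' deposited table.

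Laminins and perlecan held 9 peaks at 5 genes, 8 of them higher and none called (88.9% higher, median 0.94 per the authors' deposited table). Over all listed peaks 3.02% were called and 62.1% were higher, a share inside the interval of this class (51.8% to 99.7%). Lamc3, a gamma chain gene, was split. Its promoter peak stood at 5.68 in knockout and 4.96 in control (0.72, FDR 0.432), while its intron 12 peak stood at 2.68 in knockout and 4.11 in control (-1.43, FDR 0.263), both from the authors' deposited table. Lama1, an alpha chain gene of the retinal inner limiting membrane, had a first-intron peak at 4.61 in knockout and 3.57 in control (1.04, FDR 0.4 per the authors' deposited table). For Lamb1, the widely used beta chain gene, an upstream peak had 4.47 in knockout and 3.13 in control (1.33, FDR 0.374 per the authors' deposited table). Perlecan, from Hspg2, had an exon 2 peak at 5.25 in knockout and 4.31 in control (0.94, FDR 0.331 per the authors' deposited table). This class had the highest median signal of the 5, at 4.85 against 3.72 for all 96 on the log2 scale. Nid1, Nid2, Lama4, Lama5, Lamb2 and Lamc1 had no listed peak.

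Other matrix proteins held 25 peaks at 13 genes, 21 higher and 4 lower (84.0% higher, median 1.41 per the authors' deposited table). The matricellular genes, whose products signal to cells more than they build fibres, had 15 higher peaks and 1 lower, the called Thbs4 peak. Ccn2 encodes CTGF, a secreted matricellular protein and a target of YAP signalling. Its 5 peaks lie 116017 to 150235 bases from its start site, all in intron 3 of the noncoding gene Gm15270. In the authors' deposited table their log2 folds were 0.91, 1.23, 1.33, 1.45 and 1.73, the smallest FDR being 0.157. Tnc, the tenascin-C gene, had 3 peaks with log2 folds of 1.47, 1.59 and 1.88 and FDR from 0.225 to 0.377 per the authors' deposited table. The Tnc peak in exon 14 stood at 4.53 in knockout and 2.94 in control per the authors' deposited table. Thbs1 and Thbs2 encode thrombospondins that restrain angiogenesis, and all 3 of their peaks were higher, unlike that of Thbs4. For Thbs1 the levels were 3.68 in knockout and 1.00 in control (2.68, FDR 0.109 per the authors' deposited table). The Thbs2 peaks had log2 folds of 1.06 (FDR 0.197) and 0.89 (FDR 0.325) per the authors' deposited table.

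Fibulin and fibrillin genes had 4 peaks, all higher. Fbn1, the fibrillin-1 gene of elastic microfibrils, stood at 3.92 in knockout and 1.67 in control (2.26, FDR 0.226 per the authors' deposited table). Fbln1, for fibulin-1, stood at 5.05 in knockout and 3.60 in control (1.45, FDR 0.23), and the second Efemp1 peak at 5.51 in knockout and 4.54 in control (0.96, FDR 0.382), both from the authors' deposited table. Sparcl1 had 2 higher peaks (1.41, FDR 0.233 and 0.71, FDR 0.49) and Postn, the periostin gene, 1 (1.43, FDR 0.28), per the authors' deposited table. Loxl4, which encodes a collagen cross-linking oxidase, was mixed. Beside the lower peak given above, it had peaks with log2 folds of 1.96 (FDR 0.397) and 0.76 (FDR 0.533) per the authors' deposited table. Loxhd1 shares only the first letters of the name, is known from inner ear hair cells, and had 2 lower peaks (-2.41, FDR 0.142 and -1.24, FDR 0.488 per the authors' deposited table).

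Proteases and inhibitors held 23 peaks at 17 genes, 17 higher and 6 lower (73.9% higher, median 1.21 per the authors' deposited table). The counts by subgroup are small, and no difference between subgroups was tested. All 8 peaks of the proteoglycan-cleaving enzymes Adamts1, Adamts5, Adamts8 and Adamts9 were higher. Adamts9 alone had 4, of which 3 lie 289421 to 323527 bases from its start site and 1 lies in 9530026P05Rik. Those without a call had log2 folds of 2.12 (FDR 0.245), 0.93 (FDR 0.415) and 1.21 (FDR 0.433) per the authors' deposited table. The second Adamts1 peak stood at 3.71 in knockout and 2.23 in control (1.48, FDR 0.447 per the authors' deposited table). Adamts5 (1.25, FDR 0.543) and Adamts8 (1.75, FDR 0.536) were near the listing limit of the authors' deposited table. Procollagen-processing enzymes were split 2 and 2, with Adamts14 at 5.14 in knockout and 6.16 in control (-1.02, FDR 0.477 per the authors' deposited table). Adamts3, whose product also activates VEGF-C, stood at 5.15 in knockout and 3.99 in control (1.16, FDR 0.336 per the authors' deposited table). Adamts2 had both signs, -1.54 (FDR 0.321) and 0.72 (FDR 0.35) per the authors' deposited table.

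Of the remaining ADAMTS genes, Adamts16 had a lower peak, at 1.39 in knockout and 3.28 in control (-1.89, FDR 0.156 per the authors' deposited table). Adamts6 (1.20, FDR 0.379) and Adamts17 (0.60, FDR 0.485) were higher per the authors' deposited table. So were Adamtsl3 (1.33, FDR 0.164) and Adamtsl4 (1.32, FDR 0.263), whose products lack the protease domain (values from the authors' deposited table). The MMP genes had 4 listed peaks, none called, against 3.02% of all listed peaks called. Those of the membrane-type genes were lower, with Mmp15 at 5.20 in knockout and 6.08 in control (-0.88, FDR 0.272) and Mmp17 at 2.92 in knockout and 4.19 in control (-1.26, FDR 0.51), per the authors' deposited table. Those of the secreted-type genes were higher, Mmp1a at its promoter and Mmp27 at a first-intron peak with 3.55 in knockout and 1.00 in control (2.55, FDR 0.153 per the authors' deposited table). Timp3 encodes the inhibitor that binds to matrix and blocks VEGF receptor 2. Its gene is nested in Syn3, and both its peaks lie in Syn3 introns, 1 higher (1.97, FDR 0.28) and 1 lower (-1.36, FDR 0.423) per the authors' deposited table. Mmp2, Mmp9, Mmp14, Timp1, Timp2 and Adamts4 had no listed peak.

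Integrins held 21 peaks at 14 genes, 15 higher and 6 lower, with none called (71.4% higher, median 1.17 per the authors' deposited table). Over all listed peaks 3.02% were called and 62.1% were higher, a share inside the interval of this class (47.8% to 88.7%). All 4 peaks of collagen-binding alpha chains were higher. Itga2, which with beta 1 forms a collagen receptor, had 3 of them, 2 upstream and 1 in an intron. In the authors' deposited table they stood at 4.27, 5.09 and 4.13 in knockout and 2.81, 3.80 and 2.78 in control, with FDR of 0.193, 0.223 and 0.411. Itga11 stood at 3.55 in knockout and 1.37 in control (2.18, FDR 0.225 per the authors' deposited table). Itga4, for a fibronectin and VCAM-1 receptor chain, had 3 peaks upstream of the gene (0.74, 1.34 and 1.39, smallest FDR 0.268 per the authors' deposited table). Laminin-binding chains were split, with Itga3 at 5.04 in knockout and 3.87 in control (1.17, FDR 0.192) and exon 1 of Itga7 at 2.36 in knockout and 4.15 in control (-1.78, FDR 0.239), from the authors' deposited table.

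Itga9 encodes a receptor chain for tenascin-C and lymphatic valve fibronectin, and its 3 intron peaks did not go one way. The peak 1210 bases from its start stood at 1.39 in knockout and 3.19 in control (-1.80, FDR 0.19 per the authors' deposited table). The next, 4691 bases from the start, stood at 3.61 in knockout and 2.06 in control (1.55, FDR 0.315), and the third at 2.99 in knockout and 4.19 in control (-1.21, FDR 0.323), per the authors' deposited table. Itgav, the alpha V chain gene of angiogenic vessels, was higher at an upstream peak (0.69, FDR 0.539 per the authors' deposited table). Of the beta chains that can pair with it, Itgb5 was higher at the promoter and Itgb3 at a peak 93921 bases from the start site (1.80, FDR 0.437 per the authors' deposited table). Itgb1, a partner of alpha V too and of most matrix-binding alpha chains, had the single intron peak at -2.60 per the authors' deposited table, the lowest fold of the class. Itgb1bp1, a cytoplasmic regulator of beta 1 and not an integrin, had a peak inside Asap2 (0.74, FDR 0.522 per the authors' deposited table). Leukocyte integrin genes were mixed. Itgae (1.96, FDR 0.448) was higher, Itgb2 (-0.93, FDR 0.47) lower, and Itgb7 had 1 peak of each sign (0.99, FDR 0.44 and -1.55, FDR 0.259), per the authors' deposited table. The lower Itgb7 peak lies in Rarg. Itga1, Itga5, Itga6 and Itgb8 had no listed peak assigned to them.

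**Figure D3:**
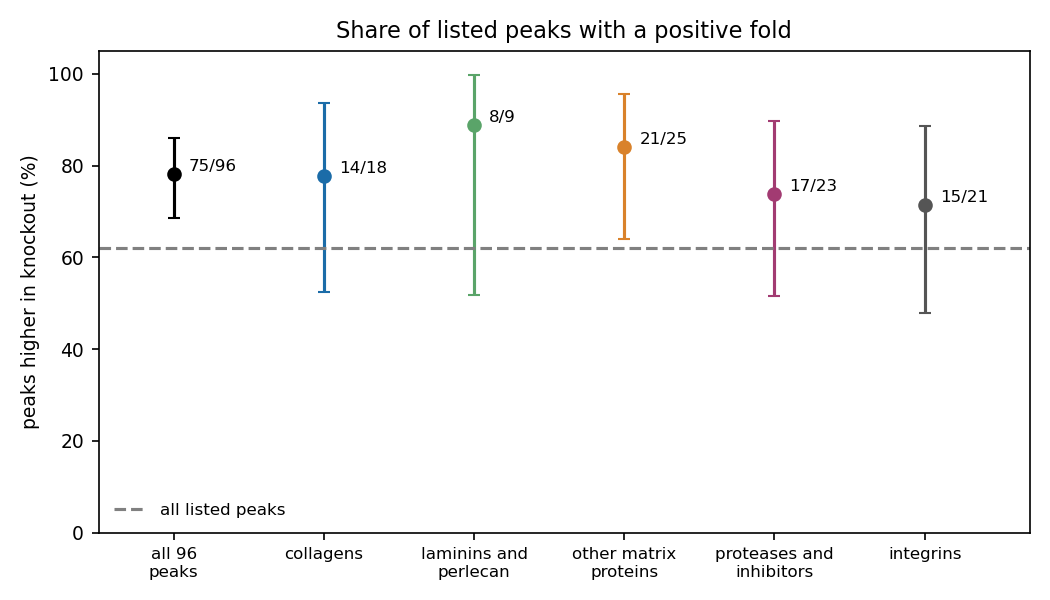
Percent of listed peaks with a positive fold (vertical axis) for the 96 peaks and each class, with 95% exact binomial intervals that treat peaks as independent and cover counting error only. The class shares run from 71.4% to 88.9%, their intervals overlap one another, and the dashed line is the 62.1% of all listed peaks.

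Each class thus had a majority of positive folds, as had the whole list (62.1%), and the counts do not separate the classes. The class intervals include the 62.1%, except that of the other matrix proteins (63.9% to 95.5%). With 1 peak per gene the interval of that class, 46.2% to 95.0%, includes it too. Distance separated the signs more plainly. All 31 peaks farther than 50 kb from a start site were higher (median log2 fold 1.43), against 75.4% of the 2120 listed peaks at that distance. They were assigned to 21 genes, and 5 of them to Ccn2. Every one of the 5 classes took part, with 10 such peaks for other matrix proteins, 9 for proteases, 5 each for collagens and integrins and 2 for laminins. The 21 lower peaks all lay within 50 kb, where 44 of 65 were higher (67.7%, against 56.2% of all listed peaks there). In the nearest 10 kb, 13 of 20 were higher, or 65.0%, against 46.2% of all listed peaks. At promoters 4 of 4 were higher, against 36.4% of 415 listed promoter peaks, and in exons 3 of 4, against 32.3% of 155. These are few peaks, with an exact interval of 39.8% to 100% at promoters. A promoter peak of Itgb1bp1 that is assigned to Cpsf3 was lower (-1.07, FDR 0.407 per the authors' deposited table). The split by distance did not extend to the 22 listed peaks inside matrix genes that are assigned elsewhere. Of these, the 9 lower lay a median of 65010 bases from a start site and the 13 higher 42277.

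Intergenic and intron peaks were also above the list as a whole. Of 42 intergenic peaks 36 were higher (85.7%, against 75.1% of all listed), and of 45 intron peaks 32 were (71.1%, against 55.5%). The sign varied with signal strength by more within the set than over all listed peaks. Of the 47 peaks with a mean log2 signal no lower than 3.74, the table's median, 43 were higher (91.5%, against 63.2% of all listed). Of the 49 weaker peaks 32 were higher (65.3%, against 60.9%). The median of mean log2 signal was 3.95 for the higher and 3.43 for the lower members, while over all listed peaks it was 3.77 and 3.70. Folds themselves were of ordinary size, the higher members having a median log2 fold of 1.33, against 1.37 for all higher listed peaks. For the lower members it was -1.43, against -1.27 for all lower listed peaks.

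**Figure D4:**
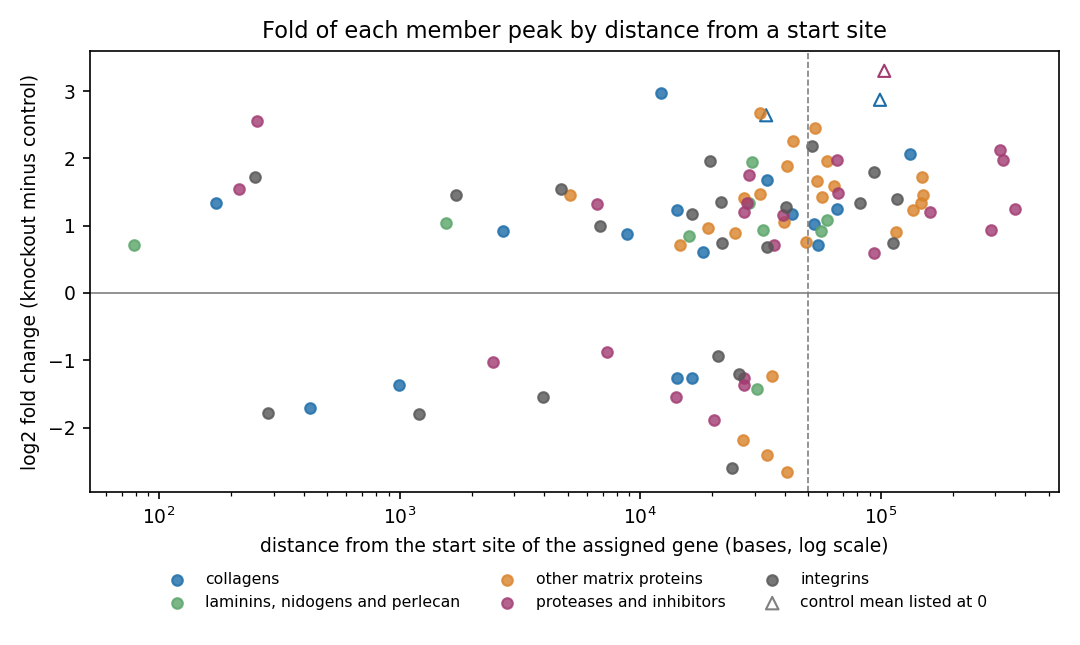
Log2 fold (knockout minus control, vertical axis) of each of the 96 peaks against its distance in bases from the start site of the assigned gene (horizontal log axis), coloured by gene class, with open triangles where the control mean is listed at 0. Right of the dashed line at 50 kb all 31 peaks have positive folds, and all 21 negative folds lie left of it.

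Of the 20 genes with 2 or more listed peaks, 12 had only higher peaks, 1 only lower (Loxhd1) and 7 both. So 65.0% had peaks of one sign, against 57.1% of all 1310 such genes. The share with only higher peaks was 42.7% among all such listed genes. With 3 or more peaks there were 9 genes. In 7 of them, Ccn2, Adamts9, Tnc, Itga2, Itga4 and Col28a1 among these, every peak was higher (77.8%, against 37.7% of the 382 such genes in the table). Itga9 and Loxl4 had both signs. Within 50 kb on either side of these peaks no peak assigned to another gene was listed. The Ccn2 peaks spanned 34648 bases, those of Itga4 35638 and those of Adamts9 296864. Outside that flank, 53291 bases beyond the far end of Tnc, lay a called intergenic peak assigned to Tnfsf8. It stood at 5.01 in knockout and 3.15 in control (1.87, FDR 0.0293 per the authors' deposited table). The other listed Tnfsf8 peak, 119037 bases beyond that end, was lower (-1.12, FDR 0.502 per the authors' deposited table).

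**Figure D5:**
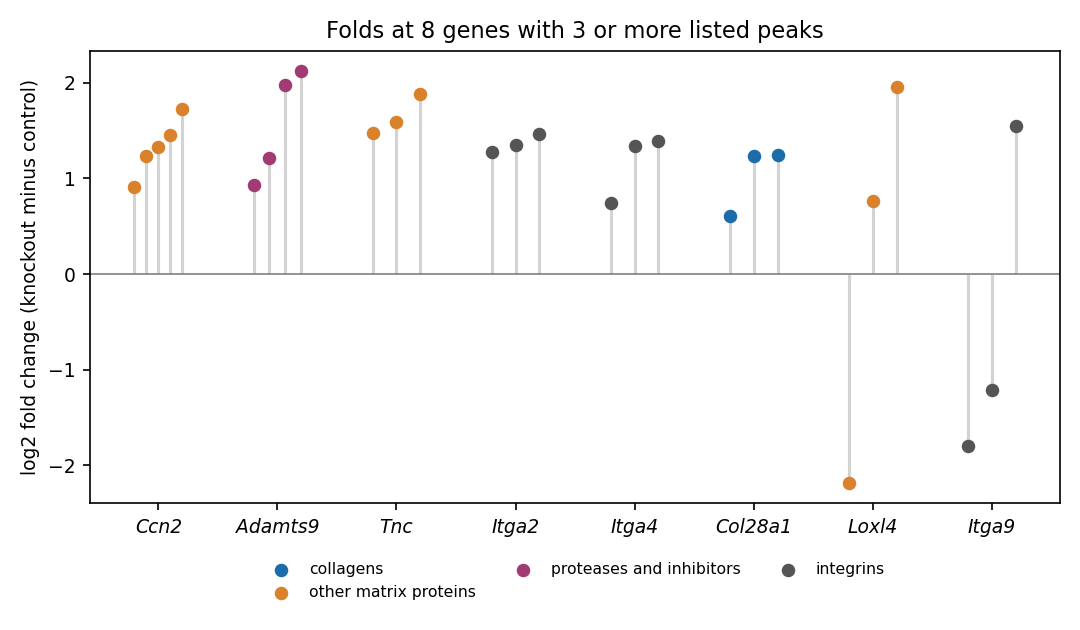
Log2 fold (knockout minus control, vertical axis) of each listed peak at 8 of the 9 genes with 3 or more, coloured by gene class; 1 point is 1 peak, ordered by fold within a gene. Peaks of 6 genes are all above 0, and Loxl4 and Itga9 have points on both sides.

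Assignment by nearest start site left out peaks that lie inside matrix genes. Only 39 of the 96 peaks overlap the RefSeq span of their own gene. Of the 54 peaks with an annotated transcript, 13 lie in a transcript of another gene, 10 of them in a gene outside the pattern. In turn, 22 listed peaks lie in transcripts of genes that fit the name pattern but are assigned elsewhere, 13 higher and 9 lower. One of these is called and lower, in intron 39 of Fn1, the fibronectin gene, at chr1:71595495-71595718, and it is assigned to Atic. It stood at 1.08 in knockout and 3.97 in control (-2.89, FDR 0.0332 per the authors' deposited table). That fold is lower than any of the 96. Fn1 had no other listed peak.

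Further peaks of this kind touched collagen, perlecan, integrin and protease genes. Both Col13a1 intron peaks were lower (-1.54, FDR 0.291 and -1.17, FDR 0.441) and Col15a1, a vascular basement membrane collagen gene, had 2 higher intron peaks (1.22, FDR 0.437 and 0.65, FDR 0.522), per the authors' deposited table. The 3' ends of Col22a1 (-1.37, FDR 0.127) and Col8a2 (-1.80, FDR 0.229) were lower per the authors' deposited table. Hspg2 gained a higher peak in intron 61 (1.91, FDR 0.512), and Itga6, for a laminin receptor chain, a lower one in its last intron (-1.19, FDR 0.351), per the authors' deposited table. Both Mmp24 intron peaks were higher (1.85, FDR 0.328 and 1.73, FDR 0.335 per the authors' deposited table), unlike those of the other membrane-type genes Mmp15 and Mmp17. Inside Adamts9 itself there was 1 peak of each sign (1.75, FDR 0.285 and -0.98, FDR 0.527 per the authors' deposited table). With members taken by the gene that holds the peak, 80 of 108 were higher (74.1%), and collagens were 16 of 25 (64.0%).

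A core list of 32 endothelial basement membrane genes and receptors gave 20 higher and 4 lower peaks at the 14 genes with a listed peak (83.3% higher, against 62.1% of all listed peaks), with 2 called (8.33%, against 3.02%). Its peaks are a subset of the 96 chosen with earlier results known, and the other 18 genes had none assigned to them. Among those 18, Fn1 and Itga6 hold the lower peaks given above that are assigned elsewhere, that of Fn1 called. Further peaks of this kind lie in the core genes Col4a2 (lower), Hspg2 and Itgb5 (higher) and Adamts9 (1 of each sign). The core share does not count them.

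Genes of the same pathway outside the name pattern were taken from a separate list of 95 names. Of these, 33 had 53 listed peaks, 29 higher and 24 lower (54.7% higher, against 62.1% of all listed peaks, median log2 fold 0.84 per the authors' deposited table). Of these, 3 were called (5.66%, against 3.02% of all listed peaks). Serpine2, a protease inhibitor gene, rose at a distal peak (4.57 in knockout, 2.63 in control, 1.94, FDR 0.0484 per the authors' deposited table). Lims1, which encodes the integrin adaptor PINCH1, fell at an intron peak (4.97 in knockout, 6.33 in control, -1.36, FDR 0.0273 per the authors' deposited table). Matn3, a cartilage matrix gene, fell to 0.13 in knockout, the lowest value of that column, against 3.33 in control (FDR 0.0464 per the authors' deposited table). Adaptors that tie integrins to actin had folds of both signs. Parva stood at 0.82 in knockout and 3.48 in control (-2.66, FDR 0.0963), Parvb had 2 lower peaks (-1.86 and -0.76) and Fermt2 1 (-1.37, FDR 0.403), per the authors' deposited table. Ptk2 encodes focal adhesion kinase; it had 2 lower peaks (-1.88, FDR 0.0589 and -1.22, FDR 0.28) and 1 higher (1.37, FDR 0.464), and Pxn 1 lower (-0.71, FDR 0.515), per the authors' deposited table. The 3 peaks of Tln2, the talin-2 gene, and both of Fermt1 were higher, with log2 folds from 0.64 to 1.36 per the authors' deposited table.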

How the data were processed

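Open chromatin was profiled by ATAC-seq in 4 libraries of retinal endothelial cells, and the data analysed were 1 deposited peak table, held as text and as a workbook whose numbers were equal in all 6891 rows. Per the submitters' processing notes the build was mm10 and the tools were DiffBind, edgeR, ChIPseeker, MACS2, Trimmomatic 0.36, Bowtie2, Picard 1.119, SAMtools and deepTools; what each did, and any read shift, filter or scaling, was not given in the sources used here. Per peak, the authors deposited group means and fold changes on a log2 scale, and a p-value and FDR. The listed log2 fold equals knockout minus control within 0.01. About 76300 peaks were tested by the authors, as implied by FDR, rank and p-value. Distances, annotation and gene assignment are the authors'.

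Peaks were counted, summed up by medians and given exact 95% binomial intervals with Python 3.11.15, pandas 2.3.3 and SciPy 1.17.1; the counting step was tested on simulated data. Annotated transcripts were matched to RefSeq genes (GRCm38.p6, all 54 matched, as did all 63 symbols), and promoter sequences are RefSeq's. No test over samples was possible. In each class the named peaks are those at FDR < 0.05, the 4 of smallest FDR per direction, genes with 3 or more peaks, promoter and exon peaks, and core basement membrane and receptor genes; further members were named to account for the set, after their values were seen. The members and lists were chosen with earlier results of these data known. The values of 1 member gene are counted in the totals but not reported here.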

Additional observations from a re-analysis of the deposited data

How the results depend on the processing

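Under other settings 71 values were recomputed. Shares and counts cannot be negative, so only the median log2 fold could have changed sign, and it did not. A total of 60 stayed within the interval of the main value (shares and the median) or within 1.5 times it (counts). The class intervals are wide, so staying inside them is a weak check. Some settings removed no peak from a class, so its share could not move. The collagen share, 77.8% (interval 52.4% to 93.6%), was 55.6% at FDR < 0.3. The protease share, 73.9% (51.6% to 89.8%), was 57.1% within 50 kb and 77.8% at FDR < 0.3. For all members the share at FDR < 0.3 was 68.9%, just above the lower limit of the main interval, 68.5%. The share of higher peaks, 78.1% in the main count, was 91.5% among peaks no weaker than the table's median signal, 67.7% within 50 kb of a start site and 66.7% at FDR < 0.1, a setting added after seeing the data. At that signal the laminin class and the other matrix proteins were both 100% higher (7 of 7 and 14 of 14 peaks). The median log2 fold, 1.19, was 1.34 at an absolute fold of at least 1 and 1.68 at FDR < 0.1. The 5 called peaks became 0 at FDR < 0.01. At FDR < 0.1 they became 9 of 96, against 544 of all 6891 listed peaks. At the higher signal they were 2 (4.26%, against 2.05% of all listed peaks at that signal). Within 50 kb they were 3 (4.62%, against 2.81% of all listed peaks there). These settings keep fewer peaks by construction, except the looser FDR, which keeps more calls. Counting also the peaks inside matrix genes that are assigned elsewhere, added after seeing the data, gave 88 of 118 higher (74.6%). No paired analysis was possible because the table holds group means only; leaving out a library was not possible for the same reason. The depth behind each mean is unknown.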

Other observations

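Markers of the cells that a CD31 selection keeps or could carry along had few listed peaks. Of 16 endothelial markers, 7 had 13 listed peaks, 8 higher and 5 lower, with none called (smallest FDR 0.134 per the authors' deposited table). Over all listed peaks 62.1% were higher and 3.02% called. Pecam1, the gene of CD31 itself, had no listed peak, and since only peaks past an unadjusted threshold are listed, the table cannot show which marker genes were open in both groups. Of 11 pericyte and smooth muscle markers, 2 had 1 peak each, Kcnj8 at 1.21 (FDR 0.168) and Pdgfrb at -1.41 (FDR 0.338) per the authors' deposited table. Astrocyte markers had 4 peaks, all higher, 3 of them at Slc1a3, a glutamate transporter gene that is also on the Müller glia list (2.74, FDR 0.135 for the first per the authors' deposited table). Of the 5 Müller glia markers, 2 had 4 peaks, 3 higher and 1 lower. The 1 listed microglial peak, at the Aif1 promoter, stood at 1.48 in knockout and 3.81 in control (-2.33, FDR 0.111 per the authors' deposited table). These glial and mural cells also make matrix proteins; their part in the values above was not tested.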
